A study of Mus musculus with 9 samples.

Results

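Ifit genes and cytosolic RNA sensors are 7 genes, Ifit1, Ifit2, Ifit3, Ddx58, Ifih1, Dhx58 and Mavs, out of 19938 genes tested on the array. They were named as a list, and each was to be read from the probe set that carried only its symbol and had the highest mean over the 9 arrays. Each of the 7 had a single such probe set, so that mean decided nothing, and no member was lost to a filter. The members were chosen by name, with earlier results of these data known, among them the log2 differences between the fusions, and the array mean in the rule is a measured value too. The cells were BaF3, an interleukin-3-dependent mouse haematopoietic line, infected with a retrovirus carrying BCR-RET, FGFR1OP-RET or BCR-ABL and sorted for EGFP fluorescence. BCR-RET and FGFR1OP-RET join the tyrosine kinase RET to a partner protein, and BCR-ABL, in its P210 form, is the fusion of chronic myeloid leukaemia. Total RNA from each of the 3 groups was put on 3 arrays of the type Affymetrix MouseGene 1.0 ST. The groups share the line, the retroviral infection and the sort, uninfected or empty-vector cells were not analysed here, and separate infections or clones are not described, so the p-values cover the spread of these arrays only, and that spread may be technical.

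Cytosolic RNA sensors detect viral RNA. Ddx58 encodes RIG-I and Ifih1 encodes MDA5, helicases whose caspase recruitment domains engage the mitochondrial adaptor MAVS. Dhx58 encodes LGP2, a relative that lacks those domains and modulates the other helicases. MAVS activates the kinases TBK1 and IKK-epsilon, and through them IRF3 and IRF7, and it also activates NF-kB. These factors induce type I interferon. Interferon signals back through the ISGF3 complex, which includes STAT2 and IRF9 and binds paired GAAA repeats in the promoters of its targets. The Ifit genes are such targets, and their proteins bind viral or foreign RNA and restrict its translation. The sensor genes themselves are also interferon-inducible.

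Promoter sequences are shown for Ifit1, Ifit3 and Ddx58, members whose values differed between the fusions, and for Ifit3b, which is not a member and did not differ. They are shown because the paired GAAA repeat is the core of the element that ISGF3 is known to bind. Ifih1 differed too, but its 250 bases before the start held no such repeat and are not shown. Every stretch shown therefore carries a repeat, with a 2-base gap in the Ifit stretches but only with a 1-base gap in that of Ddx58. Binding of ISGF3 to these stretches was not tested. Sequences are from RefSeq, build GRCm38.p6, read on the strand of the gene, and cover the 250 bases before an annotated start site. Of the 7 members 6 had a window in the table, and Dhx58 is named without one. Capitals mark GAAANNGAAA on either strand (TTTCNNTTTC when it lies on the opposite strand) and, in Ddx58, GAAANGAAA, a shorter form with a 1-base gap. The stretches lie at chr19:34640639-34640888 on the plus strand for Ifit1, chr19:34583279-34583528 on the plus strand for Ifit3, chr19:34607707-34607956 on the plus strand for Ifit3b, a close copy of Ifit3, and chr4:40239826-40240075 on the minus strand for Ddx58.
Ifit1: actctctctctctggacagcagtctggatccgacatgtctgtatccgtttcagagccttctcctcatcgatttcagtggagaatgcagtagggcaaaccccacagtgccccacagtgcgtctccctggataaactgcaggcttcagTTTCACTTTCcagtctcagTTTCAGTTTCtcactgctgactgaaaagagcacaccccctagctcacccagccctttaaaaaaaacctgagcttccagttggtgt
Ifit3: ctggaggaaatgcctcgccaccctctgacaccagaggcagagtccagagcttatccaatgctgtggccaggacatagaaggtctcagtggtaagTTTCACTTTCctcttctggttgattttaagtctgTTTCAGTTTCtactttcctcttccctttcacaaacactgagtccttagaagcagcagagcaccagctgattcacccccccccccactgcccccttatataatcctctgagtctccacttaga
Ifit3b: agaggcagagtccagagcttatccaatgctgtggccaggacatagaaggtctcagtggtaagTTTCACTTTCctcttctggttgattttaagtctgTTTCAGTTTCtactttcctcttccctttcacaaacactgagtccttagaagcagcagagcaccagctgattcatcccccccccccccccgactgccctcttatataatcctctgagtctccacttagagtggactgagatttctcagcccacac
Ddx58: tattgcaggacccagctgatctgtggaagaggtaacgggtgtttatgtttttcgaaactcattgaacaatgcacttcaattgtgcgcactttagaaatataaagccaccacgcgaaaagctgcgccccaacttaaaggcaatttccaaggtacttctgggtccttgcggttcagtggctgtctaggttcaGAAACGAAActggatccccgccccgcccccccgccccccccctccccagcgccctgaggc

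Ifit1 and Ifit3 each held the GAAANNGAAA repeat at 2 places, both on the strand opposite to the gene. In Ifit1 the matches began 104 and 85 bases before the start, and in Ifit3 156 and 122 bases before it. The letters were the same in both genes, TTTCACTTTC at the farther place and TTTCAGTTTC at the nearer. Windows of 300 bases, from 250 before to 50 after a start, held GAAANNGAAA at least once in 3.44% of 32851 windows and at 2 or more places in 0.225%. Ddx58 had 1 match, across positions 3 to 12 after the start, and a GAAANGAAA match that began 60 bases before it. The 1-base-gap form occurred in 3.17% of all windows. Ifih1 had 1 match at positions 33 to 42, and Ifit2, with 2 annotated starts, and Mavs had neither form in their windows. The matches past the start site are shown in 30-base stretches, at chr4:40239804-40239833 for Ddx58 and chr2:62646206-62646235 for Ifih1, both on the minus strand, with GAAANNGAAA in capitals.
Ddx58: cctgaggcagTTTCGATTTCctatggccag
Ifih1: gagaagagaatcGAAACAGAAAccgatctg

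**Figure D1:**
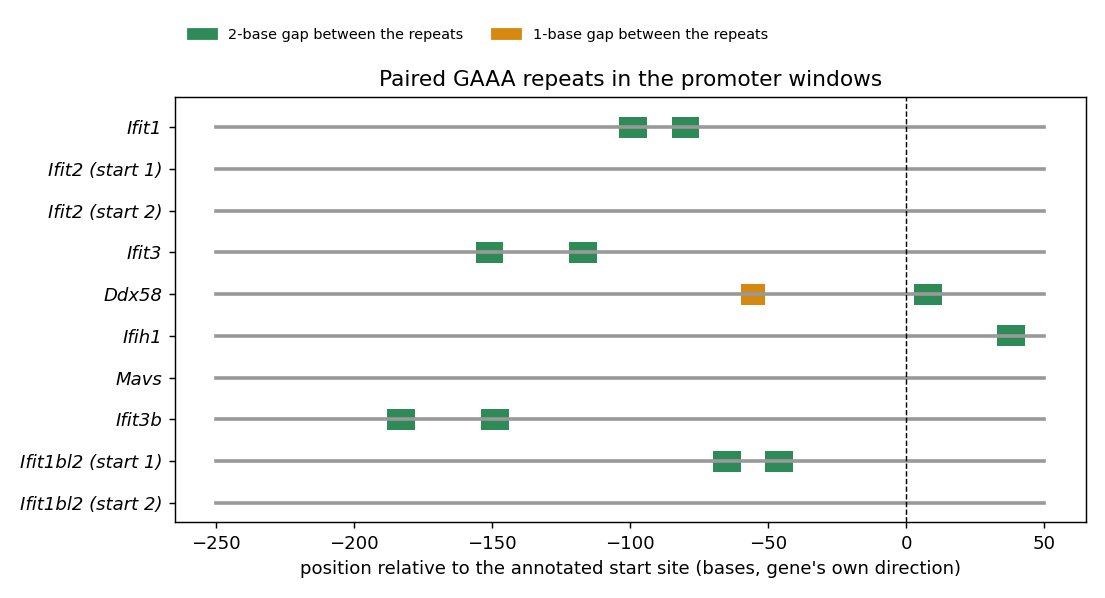
Positions of paired GAAA repeats in RefSeq promoter windows, in bases relative to the annotated start site and along the gene's own direction. Grey lines are windows of 300 bases, green blocks repeats with a 2-base gap and the orange block the repeat with a 1-base gap; Ifit1, Ifit3 and Ifit3b each carry 2 green blocks before the start, and Ifit2 and Mavs carry none.

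Ifit1 was higher with both RET fusions than with BCR-ABL, and Ifit3 was highest with BCR-RET. Ddx58 was higher with FGFR1OP-RET than with either other fusion. Ifih1 also had its highest mean with FGFR1OP-RET, but it passed only against BCR-ABL (adjusted p = 0.146 between the RET fusions). Ifit2, Dhx58 and Mavs did not pass the test in any comparison, though Dhx58 too had its highest mean with FGFR1OP-RET. A moderated F-test of any difference among the 3 fusions called Ifit1, Ifit3, Ddx58 and Ifih1, 4 of the 7 members, against 1.74% of all genes (adjusted p = 0.0134, 0.0105, 0.00309 and 0.0121 in that order). For Ifit2, Dhx58 and Mavs it gave adjusted p = 0.475, 0.236 and 0.880. With an array left out in turn, the F-test still called Ifit3 and Ddx58 in all 9 fits, Ifit1 in 8 and Ifih1 in 6. Ifit1 reached adjusted p = 0.0525 and Ifih1 0.0728, both without BCR-ABL replicate 2. With all probe sets tested, the F-test gave Ifit1 adjusted p = 0.0540. Adjusted p-values here and below are from limma, with Benjamini-Hochberg adjustment over all 19938 genes, and a gene passed under 0.05. Differences are on the log2 scale, and ± is the SD of 3 arrays. Where a gene has 3 differences in a row, they are BCR-RET over BCR-ABL, FGFR1OP-RET over BCR-ABL, and BCR-RET over FGFR1OP-RET.

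**Figure D2:**
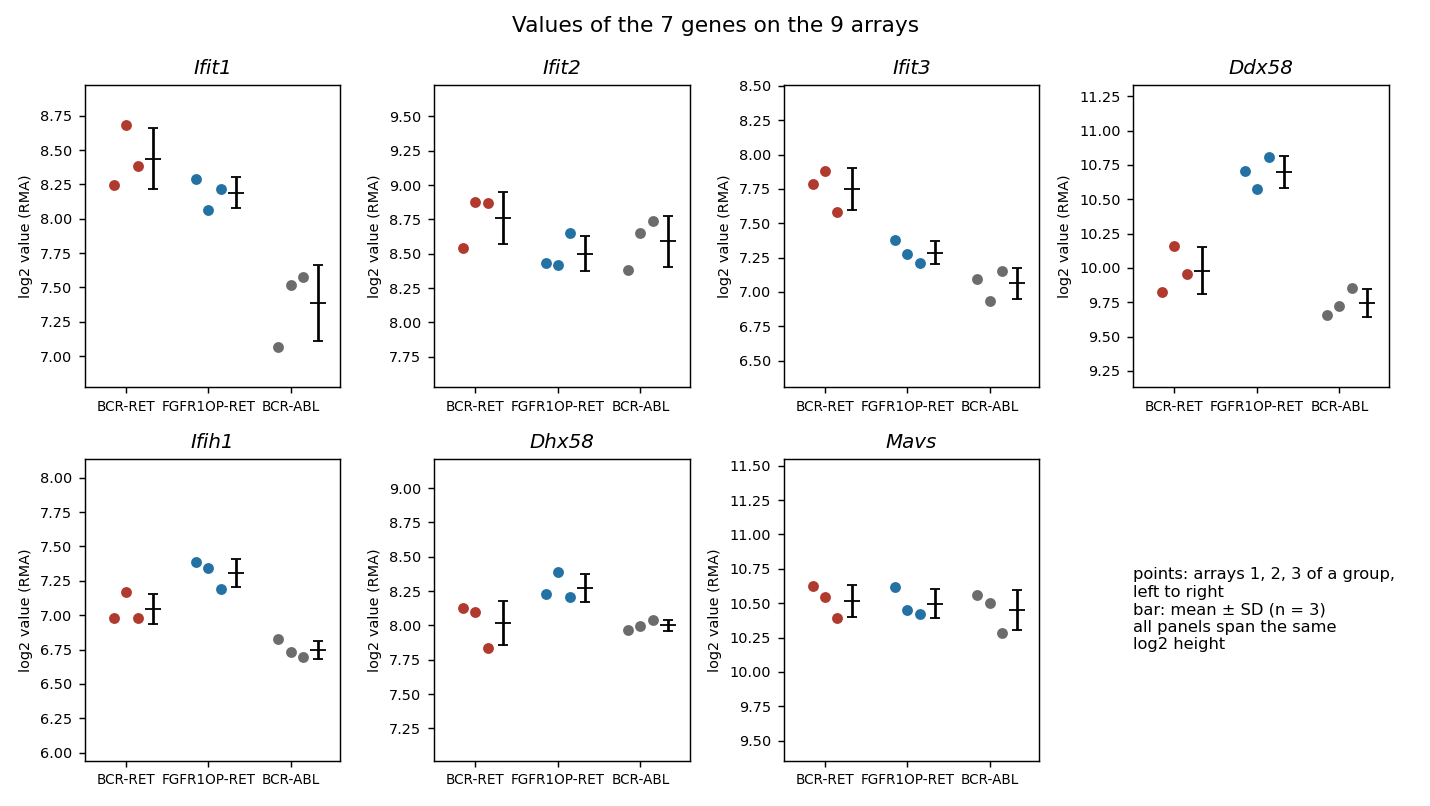
Deposited log2 values of the 7 genes, with 1 point for each array of the BCR-RET, FGFR1OP-RET and BCR-ABL groups and the mean ± SD (n = 3) beside them; each panel covers an equal log2 height. All 6 arrays with a RET fusion lie above the 3 BCR-ABL arrays for Ifit1, while for Ddx58 the 3 FGFR1OP-RET arrays, at 10.58 to 10.81, lie above the other 6.

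Ifit1, the founding member of the Ifit family, encodes a protein that binds the 5′ end of RNA lacking the methylation of host messages. Its probe set 10462623 read 8.25, 8.68 and 8.39 with BCR-RET, 8.29, 8.07 and 8.21 with FGFR1OP-RET and 7.07, 7.52 and 7.58 with BCR-ABL. Every array with a RET fusion was above every BCR-ABL array, the RET groups overlapped, and 1 BCR-ABL array lay below the other 2. The group means were 8.44 ± 0.22 with BCR-RET, 8.19 ± 0.11 with FGFR1OP-RET and 7.39 ± 0.28 with BCR-ABL. Ifit1 rose by 1.05 in BCR-RET against BCR-ABL (SE 0.15, 2.07-fold, adjusted p = 0.0147) and by 0.80 in FGFR1OP-RET against BCR-ABL (SE 0.15, 1.75-fold, adjusted p = 0.0367). These comparisons share the BCR-ABL arrays. BCR-RET and FGFR1OP-RET cells were 0.25 apart, with a 95% confidence interval of -0.08 to 0.58 (adjusted p = 0.464). The range over the 9 arrays, 1.62, exceeded that of 99.7% of genes. The BCR-RET call was lost without BCR-ABL replicate 2 (adjusted p = 0.0646) or BCR-RET replicate 2 or 3 (0.0590 and 0.0704), and the FGFR1OP-RET call held in 2 of 9 fits that left out an array, with adjusted p reaching 0.119 without BCR-ABL replicate 2.

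Ifit3 encodes a partner of Ifit1 in the human Ifit complex. Its probe set 10462618 read 7.79, 7.88 and 7.58 with BCR-RET, 7.38, 7.27 and 7.21 with FGFR1OP-RET and 7.10, 6.93 and 7.15 with BCR-ABL. The groups formed 3 steps without overlap, BCR-RET highest and BCR-ABL lowest, though the gap between the lowest FGFR1OP-RET array and the highest BCR-ABL array was narrow. Means were 7.75 ± 0.15, 7.29 ± 0.08 and 7.06 ± 0.11 for BCR-RET, FGFR1OP-RET and BCR-ABL. Ifit3 rose by 0.69 in BCR-RET against BCR-ABL (SE 0.09, 1.61-fold, adjusted p = 0.0109; 0.0646 without BCR-ABL replicate 2). FGFR1OP-RET and BCR-ABL cells were 0.22 apart (interval 0.03 to 0.42), which did not pass (adjusted p = 0.434). Against FGFR1OP-RET, Ifit3 was higher in BCR-RET by 0.46 (SE 0.09, adjusted p = 0.0439). That last call held in 1 of 9 fits with an array left out, the one without BCR-RET replicate 3, and its highest adjusted p was 0.139, without BCR-RET replicate 2.

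Ifit2, whose protein can pair with other Ifit proteins and has been linked to cell death, read 8.55, 8.87 and 8.87 with BCR-RET, 8.43, 8.42 and 8.65 with FGFR1OP-RET and 8.38, 8.65 and 8.74 with BCR-ABL (probe set 10462613). All 3 groups overlapped. The differences were 0.17 (interval -0.09 to 0.44), -0.09 (-0.35 to 0.17) and 0.26 (-0.00017 to 0.52), with adjusted p = 0.584, 0.867 and 0.336.

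The other Ifit genes measured were Ifit3b and Ifit1bl2, and Ifit1bl1 was not analysed here. Over the 250 bases before the start, Ifit3 and Ifit3b had 217 identical letters among the 218 positions at which both had a base (99.5%). That alignment left out 6 gapped bases between them and 58 bases that overhung at its ends, and Ifit3b held the same repeats, 188 and 154 bases before its start. Ifit3b averaged 4.72 ± 0.20 with BCR-RET, 4.68 ± 0.11 with FGFR1OP-RET and 4.78 ± 0.17 with BCR-ABL, and its differences of -0.05, -0.09 and 0.04 did not pass (adjusted p = 0.878, 0.846 and 0.895). Ifit1bl2 lies back to back with Ifit1, and 145 bases of the upstream stretches of these genes are the same genomic letters, with both repeats inside; a further annotated start of Ifit1bl2 had neither form in its window. Its means were 4.85 ± 0.0067, 4.88 ± 0.12 and 4.94 ± 0.07 for BCR-RET, FGFR1OP-RET and BCR-ABL, with no comparison past the threshold (adjusted p from 0.636 to 0.902). Both probe sets were dim, with 2.82% of genes having a lower 9-array mean than Ifit3b and 3.47% a lower one than Ifit1bl2. Detection calls were not used here, and cross-hybridisation between Ifit3 and Ifit3b was not tested.

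Ddx58, the RIG-I gene, had the lowest F-test p of the 7 members. Its probe set 10512067 read 9.82, 10.16 and 9.96 with BCR-RET, 10.71, 10.58 and 10.81 with FGFR1OP-RET and 9.66, 9.72 and 9.85 with BCR-ABL. The FGFR1OP-RET arrays were above all others, and the BCR-RET and BCR-ABL groups overlapped. Ddx58 rose 1.94-fold in FGFR1OP-RET against BCR-ABL, with means of 10.70 ± 0.12 and 9.74 ± 0.10 (difference 0.95, SE 0.09, adjusted p = 0.00234). It was lower in BCR-RET than in FGFR1OP-RET by a log2 difference of -0.72 (SE 0.09, adjusted p = 0.00799), the opposite direction to Ifit3 in the same comparison. BCR-RET, at 9.98 ± 0.17, was 0.24 above BCR-ABL (interval 0.02 to 0.45), which did not pass (adjusted p = 0.388). The FGFR1OP-RET call against BCR-ABL held in all 18 alternative fits and the call between the RET fusions in 17, the exception being the fit of the 6 arrays of those groups alone (adjusted p = 0.0622).

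Ifih1, the MDA5 gene, read 6.98, 7.17 and 6.98 with BCR-RET, 7.39, 7.35 and 7.19 with FGFR1OP-RET and 6.82, 6.73 and 6.69 with BCR-ABL (probe set 10483110). The 3 groups did not overlap, with FGFR1OP-RET highest and BCR-ABL lowest. On the BCR-RET arrays numbered 1 and 3 the deposited value was identical. Ifih1 rose by 0.56 in FGFR1OP-RET against BCR-ABL, with means of 7.31 ± 0.10 and 6.75 ± 0.07 (SE 0.07, 1.47-fold, adjusted p = 0.00766; 0.0528 without BCR-ABL replicate 2). BCR-RET, at 7.04 ± 0.11, was 0.30 above BCR-ABL (SE 0.07) and differed from FGFR1OP-RET by -0.26 (SE 0.07), and neither passed (adjusted p = 0.165 and 0.146).

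Dhx58, the LGP2 gene, read 8.13, 8.10 and 7.84 with BCR-RET, 8.23, 8.39 and 8.20 with FGFR1OP-RET and 7.97, 7.99 and 8.04 with BCR-ABL (probe set 10391207). All FGFR1OP-RET arrays were above the other 6, by a small margin. The differences of 0.27 in FGFR1OP-RET against BCR-ABL (interval 0.09 to 0.46) and -0.26 in BCR-RET against FGFR1OP-RET (-0.44 to -0.07) did not pass over all genes (adjusted p = 0.259 and 0.212). BCR-RET and BCR-ABL were 0.02 apart (interval -0.17 to 0.21, adjusted p = 0.941).

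Mavs, the adaptor downstream of RIG-I and MDA5, read 10.62, 10.54 and 10.39 with BCR-RET, 10.62, 10.45 and 10.42 with FGFR1OP-RET and 10.56, 10.50 and 10.28 with BCR-ABL (probe set 10476276). The groups overlapped throughout. Differences were 0.07, 0.05 and 0.02, with intervals of -0.13 to 0.27, -0.15 to 0.25 and -0.18 to 0.22 (adjusted p = 0.779, 0.915 and 0.942). Changes beyond those bounds lie outside the intervals, and smaller ones could not be detected in this fit with 3 arrays a group. In each group the value fell from array 1 to array 3, a spread by replicate number that this fit did not model.

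**Figure D3:**
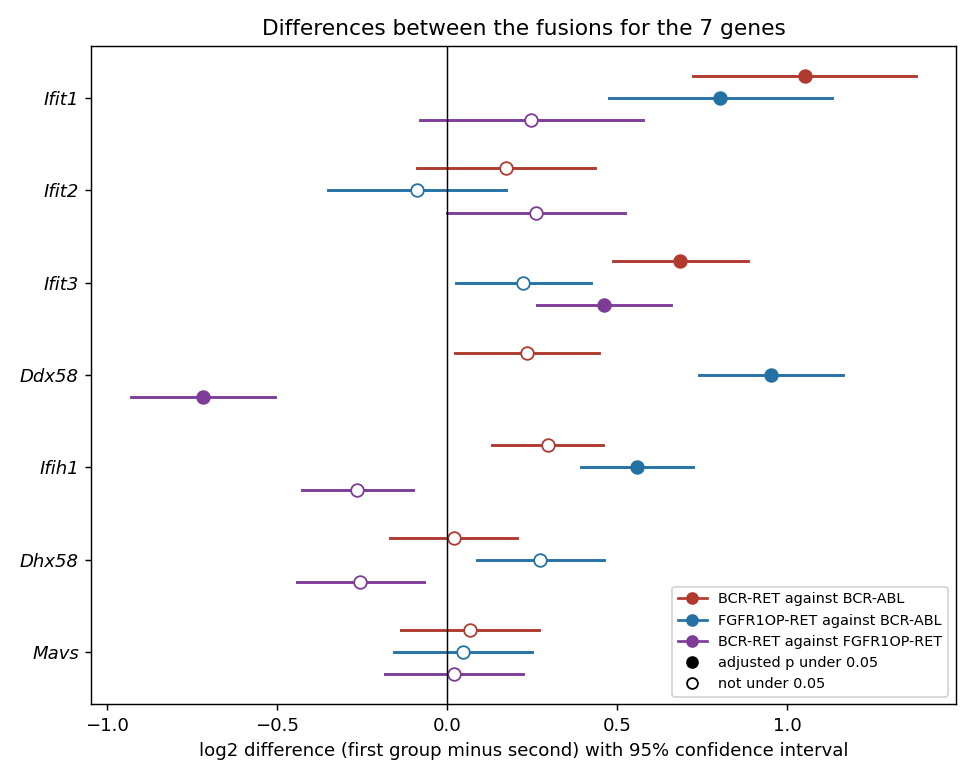
Log2 differences of the 7 genes in the 3 comparisons, first group minus second, with 95% confidence intervals; filled points had an adjusted p under 0.05. Between the RET fusions Ifit3 lies right of 0 (0.46) and Ddx58 left of it (-0.72), and all 3 Mavs intervals include 0.

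Counted over the list, 2 of 7 members rose in BCR-RET against BCR-ABL, Ifit3 and Ifit1, where 0.371% of all genes were called higher, and 3 rose in FGFR1OP-RET against BCR-ABL, Ddx58, Ifih1 and Ifit1, where 0.787% were. None fell in either, where 0.216% and 0.231% of genes were called lower. With replicate numbers entered as a block, 362 genes were called in BCR-RET against BCR-ABL in place of 117, and Ifit1 and Ifit3 had adjusted p = 0.00332 and 0.00397. Between the RET fusions 2 members were called, against 1.33% of genes in either direction, Ifit3 higher in BCR-RET (0.476% of genes) and Ddx58 lower (0.853%). The median difference of the members was 0.24, 0.27 and 0.02 in the 3 comparisons, beside 0.03, 0.0015 and 0.03 over all genes. All 3 arrays of one group stood above all 3 of the other for 3 members in BCR-RET against BCR-ABL, against 10.7% of genes, and for 5 members in FGFR1OP-RET against BCR-ABL, against 6.94%. No member stood lower in this way in either comparison, where 5.90% and 5.13% of genes did. In BCR-RET against FGFR1OP-RET 1 member stood higher in this way (8.77% of genes) and 3 lower (6.49%). As the list was drawn up with results known, these shares describe it and test nothing.

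Among themselves, the members were compared by the root mean square difference of their gene-centred log2 values over the 9 arrays, a measure that ignores the level of a probe set. Ifih1 and Dhx58 were closest at 0.17, Ddx58 and Ifih1 were 0.24 apart, and Ifit1 and Ifit3 were 0.30 apart. Ifit3 and Ddx58 were farthest apart at 0.50.

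Over the 392 genes whose group means spanned at least 0.5, the nearest to Ifit1 were Csf2rb2 (0.16), a chain of the interleukin-3 receptor, the interferon-induced exonuclease gene Isg20 (0.16) and the transcription factor gene Runx1 (0.20), beside a median of 0.49 for all of those genes. Nearest to Ifit3 were Nlrp6 (0.09), Fam178b (0.09) and the erythroid transcription factor gene Gata1 (0.11), beside a median of 0.43. Nearest to Ddx58 were the interferon-inducible GTPase gene Irgm1 (0.10), the granulocyte transcription factor gene Cebpe (0.11) and the haem synthesis gene Alas1 (0.13), beside a median of 0.485. Nearest to Ifih1 were Tap1 (0.06) and Tapbp (0.07), which serve peptide loading of MHC class I, and H2-T24 (0.10), beside a median of 0.40. Dhx58 was nearest to Tap1 (0.12), the kinase gene Fes (0.12) and Parp10 (0.13), and Ifit2 to Fam118b (0.13), Nat8 (0.14) and Cmc1 (0.15), for medians of 0.38 and 0.38. These genes were picked for their likeness to a member, so a shared pattern follows from the choice and is no result. Of the genes near Ifit1, Csf2rb2 had means above BCR-ABL by 0.90 in BCR-RET and 0.56 in FGFR1OP-RET. For Isg20 these were 0.93 and 0.85, and for Runx1 0.78 and 0.66. Irgm1, near Ddx58, was above BCR-ABL by 0.21 and 0.87 in the same order.

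**Figure D4:**
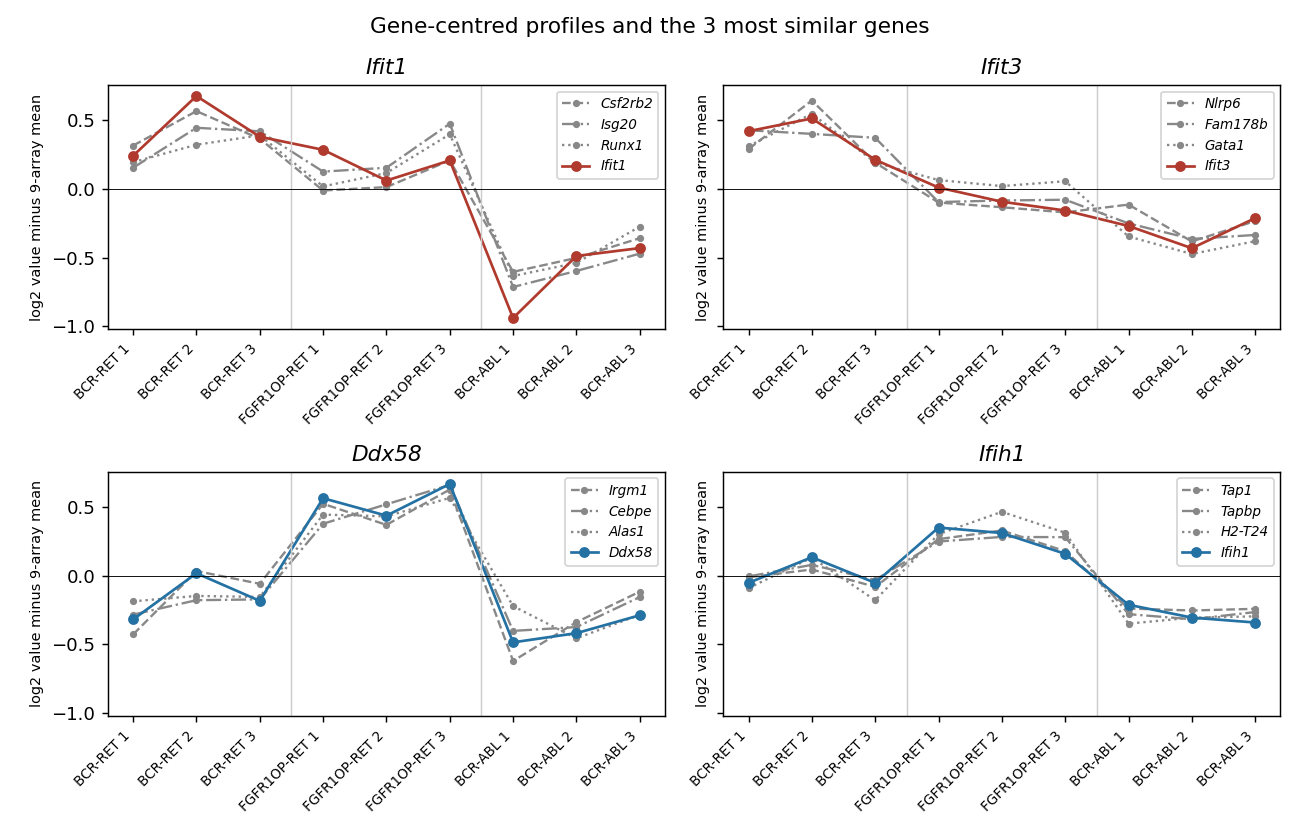
Log2 values minus each gene's 9-array mean for Ifit1, Ifit3, Ddx58 and Ifih1 (coloured) and the 3 genes nearest to each (grey), by array; lines join arrays to guide the eye and replicates have no order. Ddx58 and its neighbours are highest on the FGFR1OP-RET arrays, while Ifit1 and its neighbours are low on the BCR-ABL arrays.

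The other genes of the pathway were read from lists of the steps around the sensors. Of 20 sensor cofactors and regulators, Trim14, which encodes an adaptor at MAVS, rose in FGFR1OP-RET against BCR-ABL (0.56, SE 0.07, adjusted p = 0.00628), and Trim25, the ubiquitin ligase that activates RIG-I, was lower in BCR-RET than in FGFR1OP-RET (-0.52, SE 0.09, adjusted p = 0.0306). Trim25 averaged 10.60 ± 0.14 with BCR-RET, 11.13 ± 0.12 with FGFR1OP-RET and 10.72 ± 0.11 with BCR-ABL. No gene of this list passed in BCR-RET against BCR-ABL. The list medians were -0.05, -0.012 and -0.05, beside 0.03, 0.0015 and 0.03 over all genes. The medians were 0.018, 0.08 and -0.05 for MAVS signalling, 0.06, -0.013 and 0.04 for the interferons, -0.0089, 0.03 and -0.05 for other nucleic acid sensing, and -0.09, 0.08 and -0.12 for the interferon receptor and ISGF3.

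Of 16 MAVS signalling genes measured, Irf7, the interferon regulatory factor that amplifies type I interferon production, was the only one past the threshold in any comparison. It averaged 8.45 ± 0.24 with BCR-RET, 9.16 ± 0.11 with FGFR1OP-RET and 7.91 ± 0.15 with BCR-ABL. Irf7 rose by 1.25 in FGFR1OP-RET against BCR-ABL (SE 0.12, adjusted p = 0.00216) and was lower in BCR-RET than in FGFR1OP-RET (-0.71, SE 0.12, adjusted p = 0.0260), as Ddx58 was. Its difference in BCR-RET against BCR-ABL was 0.54 (adjusted p = 0.119; 0.00400 when replicate numbers entered as a block). The kinase gene Tbk1 (-0.04, 0.07 and -0.11) and Irf3 (0.12, 0.17 and -0.05) passed in none of the 3 comparisons, with adjusted p from 0.584 to 0.864 for Tbk1 and from 0.666 to 0.878 for Irf3.

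None of 16 interferon genes measured passed in any comparison, with 2, 3 and 3 of them at an unadjusted p under 0.05 in limma, where 11.4%, 9.75% and 14.9% of all genes were. Ifnb1, the gene of interferon beta, averaged 6.80 ± 0.13 with BCR-RET, 6.58 ± 0.15 with FGFR1OP-RET and 6.72 ± 0.03 with BCR-ABL (adjusted p from 0.287 to 0.730). The 9-array means of Ifnb1 (6.70), Ifna4, Ifna11, Ifna12, Ifna13 and Ifnk lay below 6.77, the lower quartile over all probe sets. The other interferon genes were brighter, up to 10.43 for Ifnz. Detection calls were not used here, so the lack of a call in the dim genes does not show unchanged RNA. Of 6 genes of the interferon receptor and ISGF3, Irf9, the DNA-binding part of ISGF3, rose in FGFR1OP-RET against BCR-ABL (0.54, SE 0.07, adjusted p = 0.00784). Irf9 was lower in BCR-RET than in FGFR1OP-RET (-0.57, SE 0.07, adjusted p = 0.00604), and at -0.03 in BCR-RET against BCR-ABL it did not pass (adjusted p = 0.880). Stat2, with differences of 0.13, 0.37 and -0.25, passed in no comparison (adjusted p = 0.601, 0.124 and 0.255), though without FGFR1OP-RET replicate 3 it did in FGFR1OP-RET against BCR-ABL (0.0120) and between the RET fusions (0.0444). Of 22 other nucleic acid sensing genes, Zbp1, a sensor of Z-form nucleic acid, rose in FGFR1OP-RET against BCR-ABL (0.95, SE 0.11, adjusted p = 0.00506). Adar, which edits double-stranded RNA, was lower in BCR-RET than in FGFR1OP-RET (-0.45, SE 0.09, adjusted p = 0.0460). In BCR-RET against BCR-ABL the difference of Zbp1, 0.59, passed when replicate numbers entered as a block (adjusted p = 0.00833; 0.0654 without the block).

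The calls of Irf9, Trim14 and Zbp1 and that of Irf7 against BCR-ABL held without each array in turn. Between the RET fusions the Irf7, Trim25 and Adar calls held in 4, 3 and 1 of 9 such fits, with highest adjusted p of 0.108 and 0.140 without FGFR1OP-RET replicate 2 for Irf7 and Adar and 0.118 without BCR-RET replicate 3 for Trim25.

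**Figure D5:**
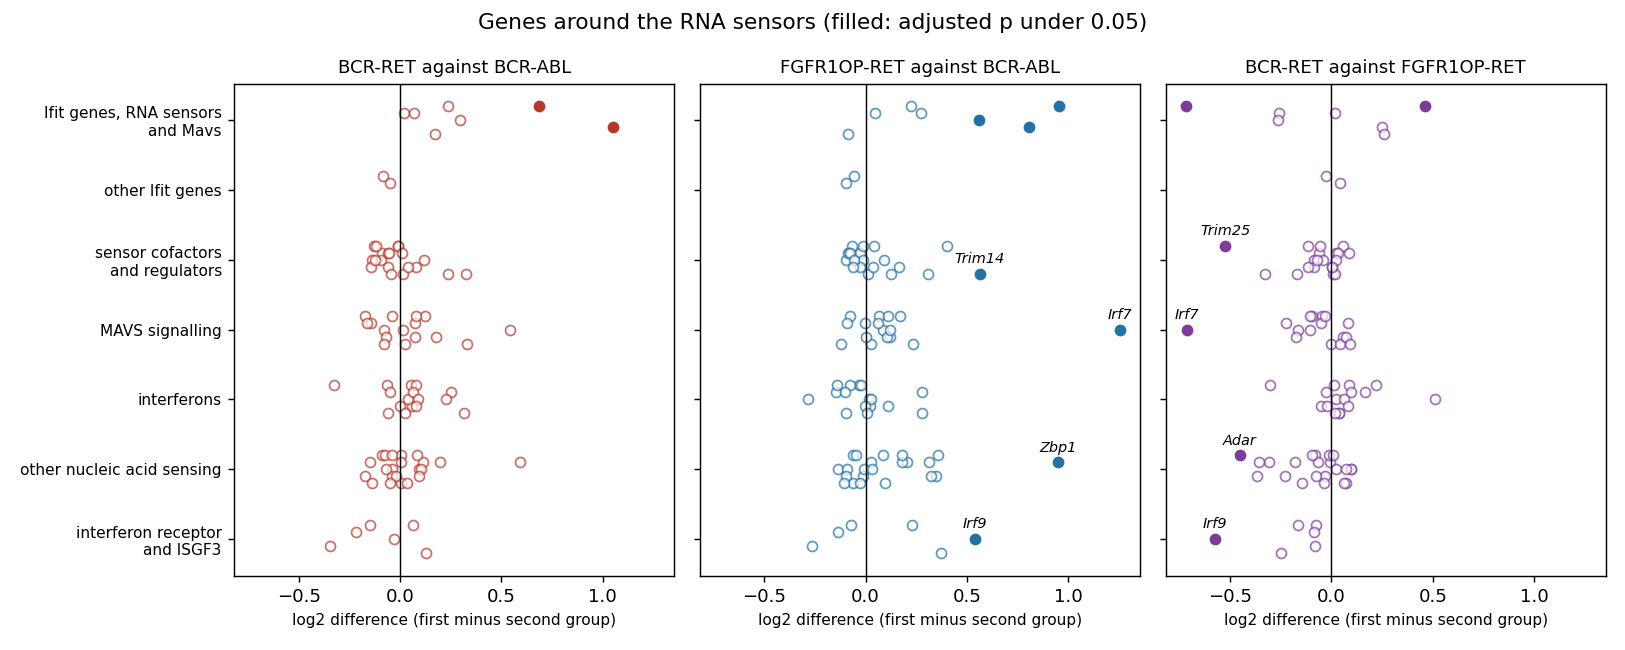
Log2 differences (first minus second group) of the 7 members and of 6 lists of pathway genes, in 1 panel for each comparison; each point is a gene, and filled points had an adjusted p under 0.05. In BCR-RET against BCR-ABL the filled points are Ifit1 and Ifit3 alone, whereas Irf7, Irf9, Trim14 and Zbp1 are filled in FGFR1OP-RET against BCR-ABL.

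The array also reports on the cells. Of 11 B-lineage genes measured none passed in any comparison, with array means of 7.20 to 7.23 in BCR-RET, 7.10 to 7.20 in FGFR1OP-RET and 7.11 to 7.17 in BCR-ABL cells; over the 9 arrays Cd79b averaged 9.75 and Rag2 5.37, the highest and lowest of the list. Of 8 monocyte and macrophage genes Cd14 (1.06), Mpeg1 (1.01) and Fcgr1 (0.57) rose in FGFR1OP-RET against BCR-ABL, the comparison in which Ddx58 and Ifih1 rose. The mean of the 8 was 8.70 to 8.80 in BCR-RET, 9.02 to 9.42 in FGFR1OP-RET and 8.57 to 8.61 in BCR-ABL cells. In FGFR1OP-RET against BCR-ABL all 8 differences were above 0, with a median of 0.61. Of the 8, 5 stood higher without overlap between the groups, against 6.94% of all genes. The other 2 of those 5, Itgam (0.65) and Lyz2 (1.02), did not pass (adjusted p = 0.186 and 0.250), and Csf1r, a defining receptor of the lineage, averaged 7.18, 7.09 and 7.07 with BCR-RET, FGFR1OP-RET and BCR-ABL. In BCR-RET against BCR-ABL Lyz2 and Fcgr1 also stood higher without overlap and Cd14 lower, where 10.7% and 5.90% of all genes did. Between the RET fusions Cd14 (-1.21) and Mpeg1 (-1.16) were lower in BCR-RET, as Ddx58 was. Of 4 genes listed for interleukin-3 dependence, Csf2rb and Csf2rb2 rose with both RET fusions against BCR-ABL, as Ifit1 did. The other genes of that list passed in no comparison. With BCR-RET, FGFR1OP-RET and BCR-ABL, Il3ra averaged 10.39, 10.52 and 10.33 and Kit 7.37, 7.34 and 7.35. The mean of the 4 was 10.57 to 10.71 with BCR-RET, 10.56 to 10.60 with FGFR1OP-RET and 10.19 to 10.25 with BCR-ABL. The part of these genes in the Ifit and sensor results was not tested. In bulk RNA, more cells of a type and more RNA per cell cannot be told apart. Of 5 plasmacytoid dendritic and 6 fibroblast or packaging cell genes none passed in any comparison. Over all probe sets the arrays correlated with r from 0.993 to 0.996 within groups and 0.989 to 0.996 between groups.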

How the data were processed

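Per the submitters' processing notes, the authors made the deposited log2 values with gene-level RMA in Affymetrix Expression Console, 1 value per probe set and array. The sources used here give no software version, annotation or genome build. Of 35557 probe sets, 21789 carried 1 gene symbol, 1621 several and 12147 none. Symbols were checked through Entrez identifiers against RefSeq, and for genes with several probe sets the one with the highest mean was kept, leaving 19938 genes. Groups came from the sample titles. limma 3.58.1 in R 4.3.3 (lmFit, eBayes) gave each group a mean over all 9 arrays with 1 shared spread. It was tested on simulated data with independent arrays, which cannot show how a spread shared by replicate number affects the fit. The number of arrays limits the precision, with a median SE of 0.07, as does any spread shared by replicate number, which this fit does not model. Of the genes, 872 had a single repeated value in some group. RMA hides a change of most transcripts in 1 direction.

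The members and lists were chosen with earlier results of these data known. Named genes are all members, listed pathway genes past the threshold, a few fixed pathway genes and the 3 nearest genes to each Ifit gene and sensor. Promoter windows came from RefSeq tables and were searched and aligned with Biopython 1.88. Same-number arrays of BCR-RET and BCR-ABL deviated together from their group means (r = 0.617, 0.155 and 0.367, taken over genes and so with no p). For numbers 1, 2 and 3, r was 0.382, -0.128 and 0.400 between FGFR1OP-RET and BCR-ABL. Between BCR-RET and FGFR1OP-RET it was 0.498, -0.152 and 0.410, so arrays numbered 1 and 3 deviated together in every comparison. Values are from the fit without a block unless stated. In the Results the blocked value is given for BCR-RET against BCR-ABL only, where it changed a call or count and for Ifit1 and Ifit3, whose calls it left. Blocked counts and changed calls of the other comparisons are in the closing section. Alternatives covered left-out arrays, the replicate block, variance models, scaling, dim genes and probe set choice.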

Additional observations from a re-analysis of the deposited data

How the results depend on the processing

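With 3 arrays a group, small differences could not be detected, and the array number limits the precision. With 1 array left out in turn, the genes past the threshold numbered 28 to 114 in BCR-RET against BCR-ABL (117 with all arrays), 70 to 185 in FGFR1OP-RET against BCR-ABL (203), 86 to 194 in BCR-RET against FGFR1OP-RET (265) and 148 to 287 in the F-test (347); the members numbered 0 to 2, 1 to 3, 1 to 2 and 2 to 4. BCR-RET against BCR-ABL had 0 members without BCR-ABL replicate 2. With the replicate block the genes numbered 362, 576, 1135 and 1199 in the same order, and the members 2, 3, 3 and 4. The added member was Ifih1 in BCR-RET against FGFR1OP-RET (adjusted p = 0.0441), where not every same-number correlation was positive. There the block also brought Trim14 (0.0174) and Zbp1 (0.0391) past the threshold, and in FGFR1OP-RET against BCR-ABL Trim25 (0.00664), Stat2 (0.0203) and Adar (0.0272); beside Irf7 and Zbp1 in BCR-RET against BCR-ABL it changed no other call of a named gene. With only the 6 arrays compared the genes numbered 56, 94 and 34 and the members 0, 2 and 0. With all probe sets tested, more tests to adjust for, the genes numbered 73, 121, 101 and 202 and the members 1, 2, 1 and 3. The member counts were 2, 3, 2 and 4 under an intensity trend, a robust variance prior, median centring, a second quantile normalization, dim genes left out and the mean of a gene's probe sets; of the named genes, the Adar call in BCR-RET against FGFR1OP-RET was lost under the trend (0.0544), and the second quantile normalization brought Zbp1 in BCR-RET against BCR-ABL (0.0486) and Trim25 in FGFR1OP-RET against BCR-ABL (0.0343) past the threshold. A second quantile normalization turned the sign of Ifit3b in BCR-RET against BCR-ABL (0.033) and of Ifit1bl2 in BCR-RET against FGFR1OP-RET (0.015), neither past the threshold, and the cause was not tested.

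Leaving out an array also brought past the threshold Zbp1 in BCR-RET against BCR-ABL (0.0390) and Stat2 in both comparisons of FGFR1OP-RET (0.0120 and 0.0444), all without FGFR1OP-RET replicate 3, and Trim14 in BCR-RET against FGFR1OP-RET without FGFR1OP-RET replicate 1 (0.0406). It turned the sign only of differences that did not pass. In BCR-RET against BCR-ABL these ran from -0.033 to 0.11 for Dhx58, -0.015 to 0.13 for Mavs, -0.15 to 0.053 for Ifit3b, -0.086 to 0.0069 for Tbk1 and -0.097 to 0.015 for Irf9. In FGFR1OP-RET against BCR-ABL they ran from -0.036 to 0.10 for Mavs and -0.019 to 0.13 for Tbk1. In BCR-RET against FGFR1OP-RET they ran from -0.031 to 0.084 for Mavs, -0.051 to 0.15 for Ifit3b, -0.077 to 0.039 for Ifit1bl2 and -0.14 to 0.026 for Irf3.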
